A study of Mus musculus with 6 samples.

Results

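In fetal mouse small intestine, a set of mesenchymal cells was defined by UMIs (unique molecular identifiers, each marking 1 captured transcript) of 6 genes: Saa1, Saa2, Gpbar1, Kcnd3, Lrrtm4 and Hsd11b2. Cells with 1000 or more detected genes and at most 5% mitochondrial UMIs were ranked by the share of their UMIs that came from these genes. The top 5% were taken separately among barcodes with the ending _1 (called A) and the ending _2 (called B), and cells with fewer than 2 such UMIs were dropped. This gave 270 members among 12688 kept cells, 263 of them in ending A and 7 in ending B.

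The tissue came from C57/BL6 embryos carrying Pdgfra-H2BGFP, a reporter in which the locus of a platelet-derived growth factor receptor drives a nuclear fluorescent protein in mesenchyme, and every group shared this allele. A pair of wells of all live Ter119-negative cells and 1 well of enriched cells (CD31+, CD45+, Epcam+ or high for the reporter) were loaded for E15.5 and E16.5 together, and the same was done for E13.5, E14.5 and E18.5. The pooled replicates numbered 4 for E13.5, 3 for E14.5 and 2 for each later age, and gut pieces of 2.5 mm were marked with lipid-bound barcodes before pooling. The deposited matrix holds all 6 samples, and its 6 barcode suffixes (A1, A2, A3, B1, B2 and B3 here) were not tied by the labels to a sample, age or gut piece. The suffixes were therefore used as technical sets, the matrix was treated as 1 sample, and groups of cells are compared without a test. All intervals are at 95% and reflect counting error alone.

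Saa1 and Saa2 encode serum amyloid A proteins, lipid-carrying proteins that the liver releases in the acute-phase response and that gut tissue can make locally. Gpbar1 encodes the membrane receptor for bile acids, which raises cyclic AMP through a stimulatory G protein. Kcnd3 encodes Kv4.3, the pore of an A-type potassium channel, and Lrrtm4 encodes a synaptic adhesion protein that binds glypicans. Hsd11b2 encodes the enzyme that inactivates corticosterone, and so keeps glucocorticoid away from the mineralocorticoid receptor. Gut mesenchyme is the connective tissue around the epithelium, and in the fetus it holds progenitors of fibroblasts, smooth muscle and the signalling cells beneath villi.

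The 6 genes are protein-coding and lie on 5 different chromosomes in the GENCODE annotation of GRCm38. Saa1 occupies chr7:46740497-46742980 on the minus strand and Saa2 occupies chr7:46751790-46754313 on the plus strand, so the pair are divergent neighbours. Gpbar1 lies at chr1:74278550-74279624, Kcnd3 at chr3:105452330-105674002, Lrrtm4 at chr6:80018877-80810143 and Hsd11b2 at chr8:105518755-105523988, all on the plus strand. Kcnd3 and Lrrtm4 overlap annotated genes on both strands, and whether the counting used strand is not given in the sources used here. The first listed coding transcripts of Saa1 and Saa2 are identical at 93.9% of 609 aligned positions and their last 200 bases at 90.1%, so the counts of the pair may be split between them uncertainly.

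The part of the Saa1 and Saa2 promoters from 250 to 101 bases before the RefSeq start site is shown because the pair had the highest co-detection of all pairs of the 6 genes and because a match to the binding motif of C/EBP factors, regulators of acute-phase genes, lies at the same place in both. Capitals mark this match, TTGCACAA. The sequences are from RefSeq on GRCm38.p6 and read 5′ to 3′ on each gene's own strand.
Saa1, chr7:46743081-46743230, minus strand: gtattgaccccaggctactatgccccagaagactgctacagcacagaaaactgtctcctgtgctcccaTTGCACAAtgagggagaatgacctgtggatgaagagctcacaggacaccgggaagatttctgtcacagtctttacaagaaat
Saa2, chr7:46751583-46751732, plus strand: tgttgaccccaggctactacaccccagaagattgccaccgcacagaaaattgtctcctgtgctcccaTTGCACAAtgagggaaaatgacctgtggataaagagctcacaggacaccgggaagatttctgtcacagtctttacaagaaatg
Over the whole windows of 300 bases, which run from 250 before to 50 after the start, the promoters were identical at 287 of 301 aligned positions (95.3%). TTGCNNAA, searched on both strands, matched 1 time in each window, beginning 182 bases before the start in Saa1 and 183 in Saa2. The same letters occurred in 10.8% of 32544 promoter windows of that length. A match is a description of the letters and says nothing about binding in these cells.

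Members came almost wholly from A1 and A2. A1 gave 124 members (5.02% of its kept cells, 4.19 to 5.96), A2 gave 136 (6.52%, 5.50 to 7.66) and A3 gave 3 (0.253%, 0.0522 to 0.738). In ending B the members numbered 1 in B1, 2 in B2 and 4 in B3, since 340 of the 347 cells in its top 5% had fewer than 2 UMIs of the 6 genes. Depth also differed: the median kept cell had 12174 UMIs in A1, 13588 in A2, 7073 in A3 and between 3553 and 4190 in the sets of ending B. After every cell was thinned to 2000 UMIs, the share of cells with a UMI of the 6 genes was 5.88% (4.98 to 6.88) in A1 and 7.43% (6.34 to 8.64) in A2. It was 1.27% in A3, and B1, B2 and B3 gave 0.859%, 1.44% and 0.868%, so the shares of A1 and A2 stood apart from the other sets at equal depth too.

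The 6 genes did not have the same profile over the sets. Summed UMIs per 1000000 UMIs (CPM) of Saa1 were 5.37 for A1, 9.13 for A2 and 3.30 for A3, then 0.394, 1.25 and 3.02 for B1, B2 and B3. Saa1 was thus the one gene of the 6 that stayed above 3 CPM in A3 and B3, where each of the other 5 was at 1.28 CPM or lower. Gpbar1, the bile acid receptor, was at 7.34 CPM in A1 and 7.60 CPM in A2. Which sets hold which ages, gut pieces or sorted cells cannot be told apart.

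**Figure D1:**
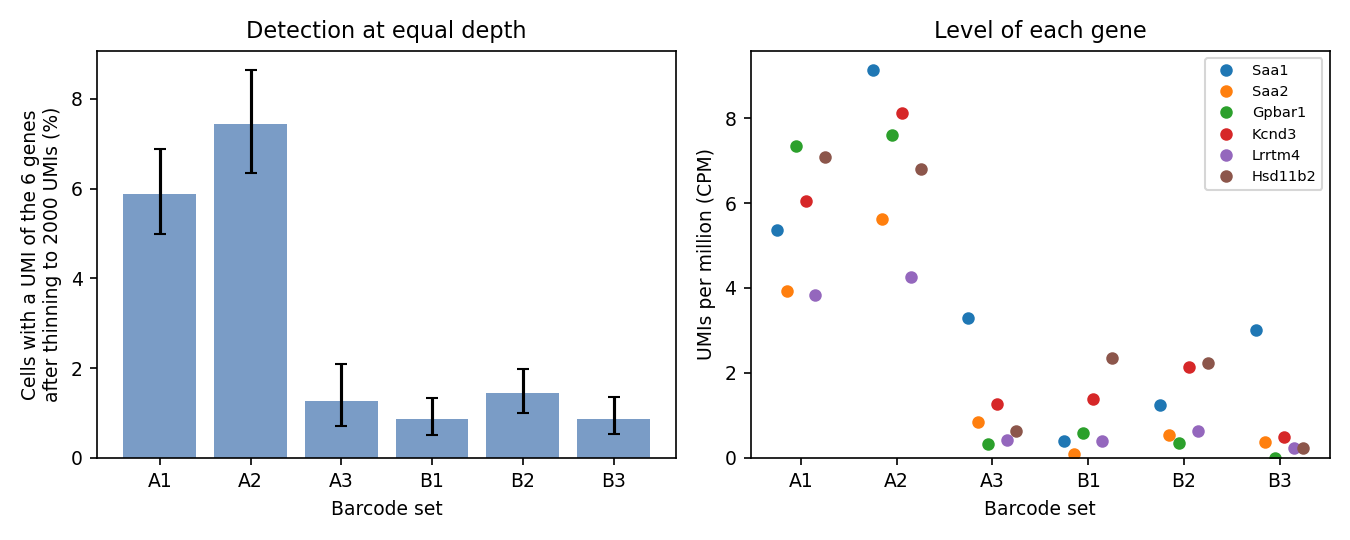
Left, percentage of kept cells with a UMI of the 6 genes after thinning each cell to 2000 UMIs, by barcode set, with exact 95% intervals; right, CPM of each of the 6 genes over all kept cells of a set. A1 and A2 stand at 5.88% and 7.43% and the other 4 sets at 1.44% or less, while Saa1 alone stays above 3 CPM in A3 and B3.

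Because only 7 members lay in ending B, everything that follows compares the 263 members of ending A with the 4297 remaining cells of A1 and A2. Members had a median of 15024 UMIs and 4402 detected genes, against 12664 UMIs and 3990 genes in the remaining cells, a gap that the requirement of 2 UMIs favours. The share of UMIs from the 6 genes ran from 1.63 to 9.72 per 10000 UMIs in members, with a median of 2.32. Just outside the limit the highest share was 1.63 per 10000, and 215 cells of ending A with 2 or more of these UMIs lay outside.

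The levels that chose the members are given as a description. Saa1 stood at 45.7 CPM in members of A1 and 73.7 CPM in members of A2, against 2.97 and 3.97 CPM in the remaining cells. Gpbar1 stood at 54.9 and 49.3 CPM against 4.50 and 4.27 CPM, and Kcnd3 at 46.9 and 52.1 CPM against 3.61 and 4.61 CPM. Over both sets and A3, the levels in members were 40.2 CPM for Saa2, 26.9 CPM for Lrrtm4 and 42.0 CPM for Hsd11b2. No single gene marked all members: Saa1 was detected in 47.1% of them, Kcnd3 in 44.1%, Hsd11b2 in 40.7%, Gpbar1 in 40.3%, Saa2 in 39.5% and Lrrtm4 in 30.4%. Of the 263 members, 45 carried 1 of the 6 genes, 103 carried 2, 83 carried 3, 23 carried 4 and 9 carried 5, and no cell carried all 6.

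As a further description, each gene was left out in turn and the cells were chosen by the other 5. The 6 genes were put together with results of these cells known, so their joint detection is no independent evidence. Saa1 was then at 35.1 CPM in the chosen cells and 5.38 CPM in the remaining cells, a log2 ratio of 2.71 (2.39 to 3.01). Saa2 was at 24.1 against 3.47 CPM, a log2 ratio of 2.79 (2.42 to 3.16). The partner Saa gene takes part in both of these choices. When cells were chosen by Gpbar1, Kcnd3, Lrrtm4 and Hsd11b2 alone, Saa1 and Saa2 together stood at 51.5 against 9.57 CPM, a log2 ratio of 2.43 (2.17 to 2.68).

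The receptor, the channel, the adhesion gene and the enzyme behaved alike but with lower ratios. Kcnd3 had a log2 ratio of 1.96 (1.60 to 2.31), Gpbar1 of 1.90 (1.54 to 2.24), Lrrtm4 of 1.84 (1.34 to 2.31) and Hsd11b2 of 1.60 (1.22 to 1.97). In A1 and A2 taken alone, the 6 log2 ratios lay between 1.59 and 2.88 with intervals above 0. Hsd11b2 was the gene with the lowest value in ending A as a whole, and its interval overlapped those of Gpbar1, Kcnd3 and Lrrtm4.

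**Figure D2:**
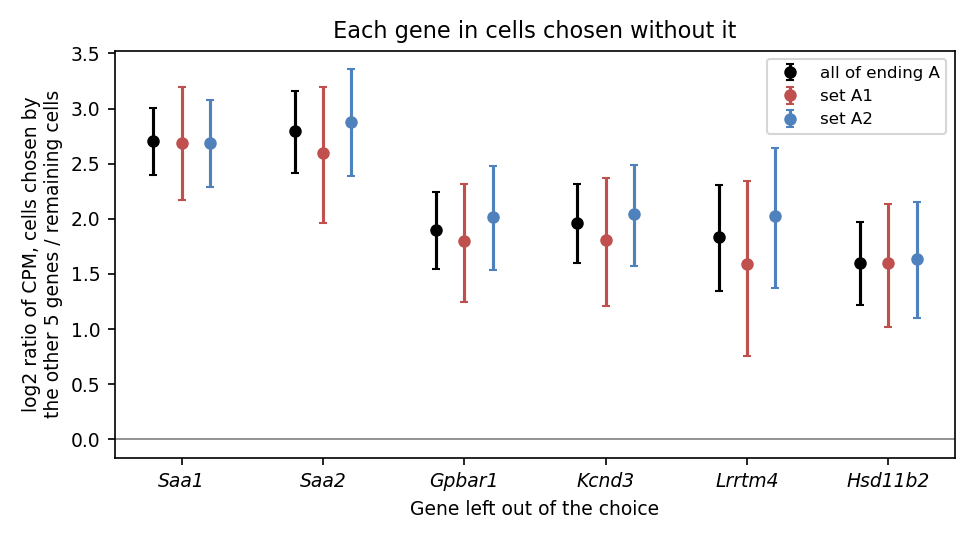
log2 ratio of CPM of each gene in cells chosen by the other 5 genes over the remaining cells, for ending A and for the sets A1 and A2, with exact 95% intervals. Saa1 and Saa2 lie near 2.7 and 2.8 and Hsd11b2 lowest at 1.60 in ending A.

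Joint detection in single cells is described with the same limit. Among the 4557 kept cells of A1 and A2, all 15 pairs of the 6 genes showed the partner more often in cells with a UMI of the first gene than in cells without, with intervals that did not overlap. Saa2 was detected in 28.0% (22.9 to 33.5) of the 293 cells with a Saa1 UMI and in 3.33% of the cells without one, a ratio of 8.40. Gpbar1 and Kcnd3 shared 70 cells, and Kcnd3 was detected 3.57 times as often in cells with Gpbar1 as in cells without. The lowest ratio, 1.86, belonged to Kcnd3 and Hsd11b2. Deeper cells detect more of every gene, and the part of depth in these ratios was not tested.

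The label mesenchyme was checked against defining markers. Col3a1 was detected in 100% of members and 99.9% of the remaining cells, and Col1a1 in 98.5% and 99.7%. Pdgfra was detected in 87.8% (83.3 to 91.5) of members against 73.6% of the remaining cells, without thinning to equal depth. Epcam, the epithelial adhesion molecule, was detected in 18.6% of members and 15.8% of the remaining cells. Endothelial Pecam1 was found in 2.28% and 2.21%, and Ptprc, the pan-leukocyte gene, in 1.52% and 0.768%. The summed level of the markers of immune cells was 15.9 CPM in members and 16.7 CPM in the remaining cells, of endothelium 35.3 and 29.3 CPM, of enteric neurons 47.8 and 47.5 CPM and of epithelium 443.6 and 474.9 CPM. Cd3e, Rag1 and Il7r (immune), Lrrn4 and Gpm6a (mesothelium) and Alas2 (erythroid) had no UMI in members, but these genes had at most 25 UMIs in the remaining cells, and Cd3e and Rag1 none. Some markers differed: the summed level of enteric glia was 34.3 against 28.2 CPM and of erythroid cells 37.9 against 48.7 CPM, Kit was detected in 12.2% against 7.10%, the neuronal gene Elavl4 in 9.886% against 6.004% and the smooth muscle gene Myh11 in 67.3% against 55.3%. Their part in the results was not tested. The label mesenchyme thus rests on Col3a1, Col1a1 and Pdgfra, which most remaining cells also carried, so it does not set members apart.

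The share of members with Xist and no Y-linked transcript was 31.9%, against 31.3% of the remaining cells, and median mitochondrial shares were 2.73% and 2.67%. These values were close in both groups.

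Among other genes, 6904 had 20 CPM or more in either group. A gene was called when it was 2-fold or more higher, or lower, in members of both A1 and A2. By this rule 28 genes were higher (0.406% of those compared) and 94 were lower (1.36%), and the median log2 ratio over all of them was 0.02. Of these, 17 of the higher genes were under 20 CPM in the remaining cells and 51 of the lower genes were under it in members, so they entered through the group in which they were high, and the 2 counts are not set against each other. Genes outside the lists used here make up 17 of the 28 and 67 of the 94. When ratios were standardised over set and UMI decile, 25 genes were higher and 66 lower.

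**Figure D3:**
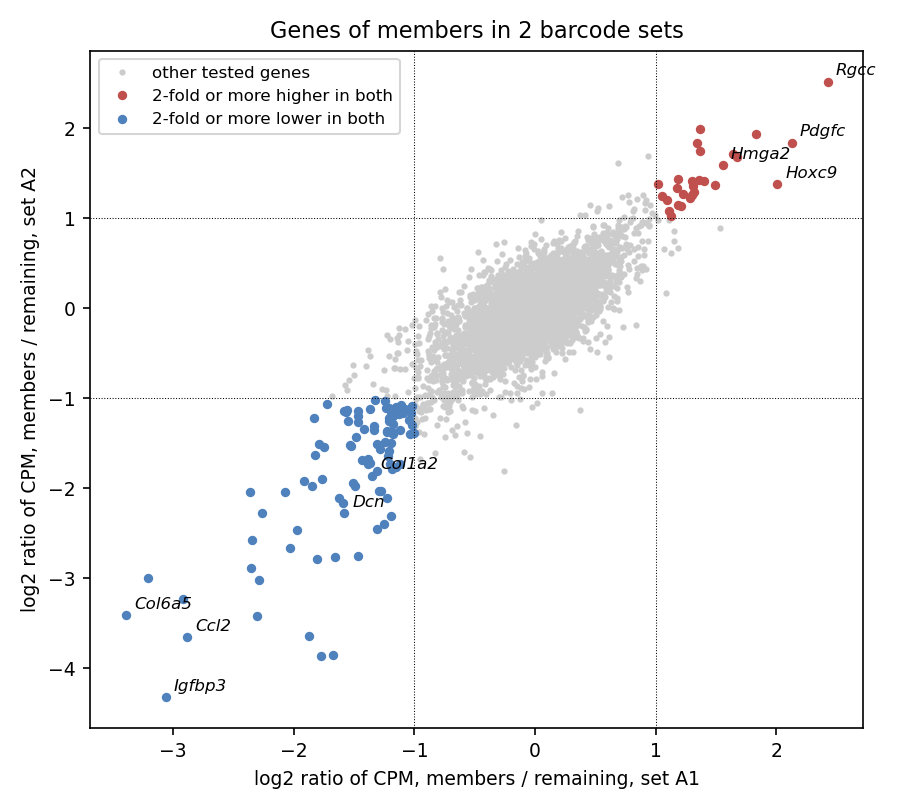
log2 ratio of CPM, members over remaining cells, in set A1 (horizontal) and set A2 (vertical) for the genes compared; dotted lines mark 2-fold. Hmga2 lies at 1.55 and 1.59, Col6a5 at -3.39 and -3.41, and the 28 higher and 94 lower genes are coloured.

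Hmga2, which encodes a chromatin protein of embryonic and growing cells, had the highest level of the genes called higher. It stood at 1096 CPM in members of A1 and 1196 CPM in members of A2, against 373.7 and 397.1 CPM in the remaining cells, a log2 ratio of 1.57 (1.53 to 1.62). In single cells its median was 1098 CPM in members and 235.1 CPM in the remaining cells. The middle 50% of members ran from 675.8 to 1544 CPM and that of the remaining cells from 85.3 to 477.0 CPM, so these ranges did not overlap.

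Of the 5 D cyclins and cycle inhibitors compared, 1 was called higher and none lower, against 0.406% and 1.36% over all genes. Ccnd1, the one called, a D-type cyclin of early cell-cycle entry, stood at 229.2 and 242.3 CPM in members of A1 and A2, against 89.4 and 90.4 CPM. Ccnd2, its relative, and Cdkn1c, an imprinted inhibitor of cyclin-dependent kinases, had log2 ratios of 0.96 and 0.93, just short of 2-fold. Igf2 (0.87) and H19 (0.74), imprinted neighbours that are active in the fetus, lay below them, and 11 of the 13 imprinted genes compared had ratios above 0, although none was called. Igfbp2, which binds insulin-like growth factors, was called higher at 139.2 against 59.1 CPM, while Igf1 was called lower at 19.2 against 91.2 CPM and Igfbp3 at 3.07 against 37.9 CPM.

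Further genes called higher were described after their values were seen. Pdgfa, a ligand of the Pdgfra receptor, stood at 166.9 and 158.7 CPM in members of A1 and A2 against 76.2 and 77.9 CPM, whereas Pdgfra itself was at 152.2 against 152.0 CPM. Pdgfc, another ligand of that receptor, was at 20.5 against 5.23 CPM. Rgcc, a regulator of the cell cycle, had the highest log2 ratio of all called genes, 2.45, at 26.1 against 4.79 CPM. Angptl6, an angiopoietin-like secreted protein, was at 103.4 against 32.4 CPM, Edn3, an endothelin peptide that acts on enteric neural progenitors, at 21.7 against 8.84 CPM, and Fst, a secreted inhibitor of activins and BMPs, at 71.4 against 32.1 CPM. Has2, the main hyaluronan synthase, was the one matrix gene called higher (52.7 against 24.4 CPM). Vcan, the hyaluronan-binding proteoglycan versican, reached 783.5 and 842.3 CPM against 392.6 and 411.9 CPM, and missed the call because its fold in A1 was just under 2.

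Of 34 matrix genes compared, 9 were called lower and 1 higher, against 1.36% and 0.406% over all genes. The list's median log2 ratio was -0.78, against 0.02 over all genes. The count of 9 became 5 when ratios were standardised over set and UMI decile, 16 among members with at least 2 of the 6 genes and 17 when cells were thinned before the choice. Col1a2, a chain of type I collagen, stood at 518.9 CPM in members of A1 and 337.6 CPM in members of A2, against 1328 and 1226 CPM. Col1a1 was at 670.8 against 1663 CPM, Fbln5, needed for elastic fibres, at 7.68 against 39.2 CPM, and Lox, which crosslinks collagen, at 17.9 against 62.9 CPM. Col14a1, Col6a1, Col6a4, Nid2 and Postn were the others called lower. Fbln5, Lox and Nid2 were under 20 CPM in members and so were compared only through their level in the remaining cells. Levels of Col3a1 (1418 against 2596 CPM) and Fn1 (177.0 against 317.8 CPM) were lower by less than 2-fold.

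Genes that mark fibroblasts of the submucosa and trophocytes, deep stromal cells that support crypts, gave the lowest median of the lists with 5 or more genes compared, -1.42. The list holds Dpt, Aspn, Mgp, Col6a5, Lepr and Wfdc1, which were used to choose cells of other mesenchymal programmes. It was chosen with earlier results of these data known, so its low median is no independent evidence. Of 14 compared, 8 were called lower and none higher, against 1.36% and 0.406% over all genes, so none higher is near the background. Dcn, the collagen-binding proteoglycan decorin, stood at 258.9 and 157.8 CPM in members of A1 and A2 against 776.2 and 767.0 CPM. Col6a5 stood at 10.3 and 8.92 CPM against 108.2 and 94.9 CPM, a log2 ratio of -3.43 (-3.94 to -2.96). Most of what remained lay in the 45 members with 1 of the 6 genes, at 66.8 CPM, while members with 2 had no Col6a5 UMI and those with 3 or more stood at 0.521 CPM. Cxcl13, a chemokine that attracts B cells, stood at 34.3 and 23.0 CPM against 175.4 and 170.9 CPM, and by number of the 6 genes at 178.1, 5.52 and 2.60 CPM. Aspn, Dpt, Ogn, Shisa3 and Igfbp3 completed the lower genes, and Cd81 was the one gene of the list with a ratio above 0 (0.64). Col6a5, Shisa3 and Igfbp3 were under 20 CPM in members and so were compared only through their level in the remaining cells. Beyond the lists, Ccl11 (eotaxin), Plac8 and Adamdec1, a metalloprotease-like gene of gut stroma, were lower, with log2 ratios of -2.79, -2.61 and -1.71.

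**Figure D4:**
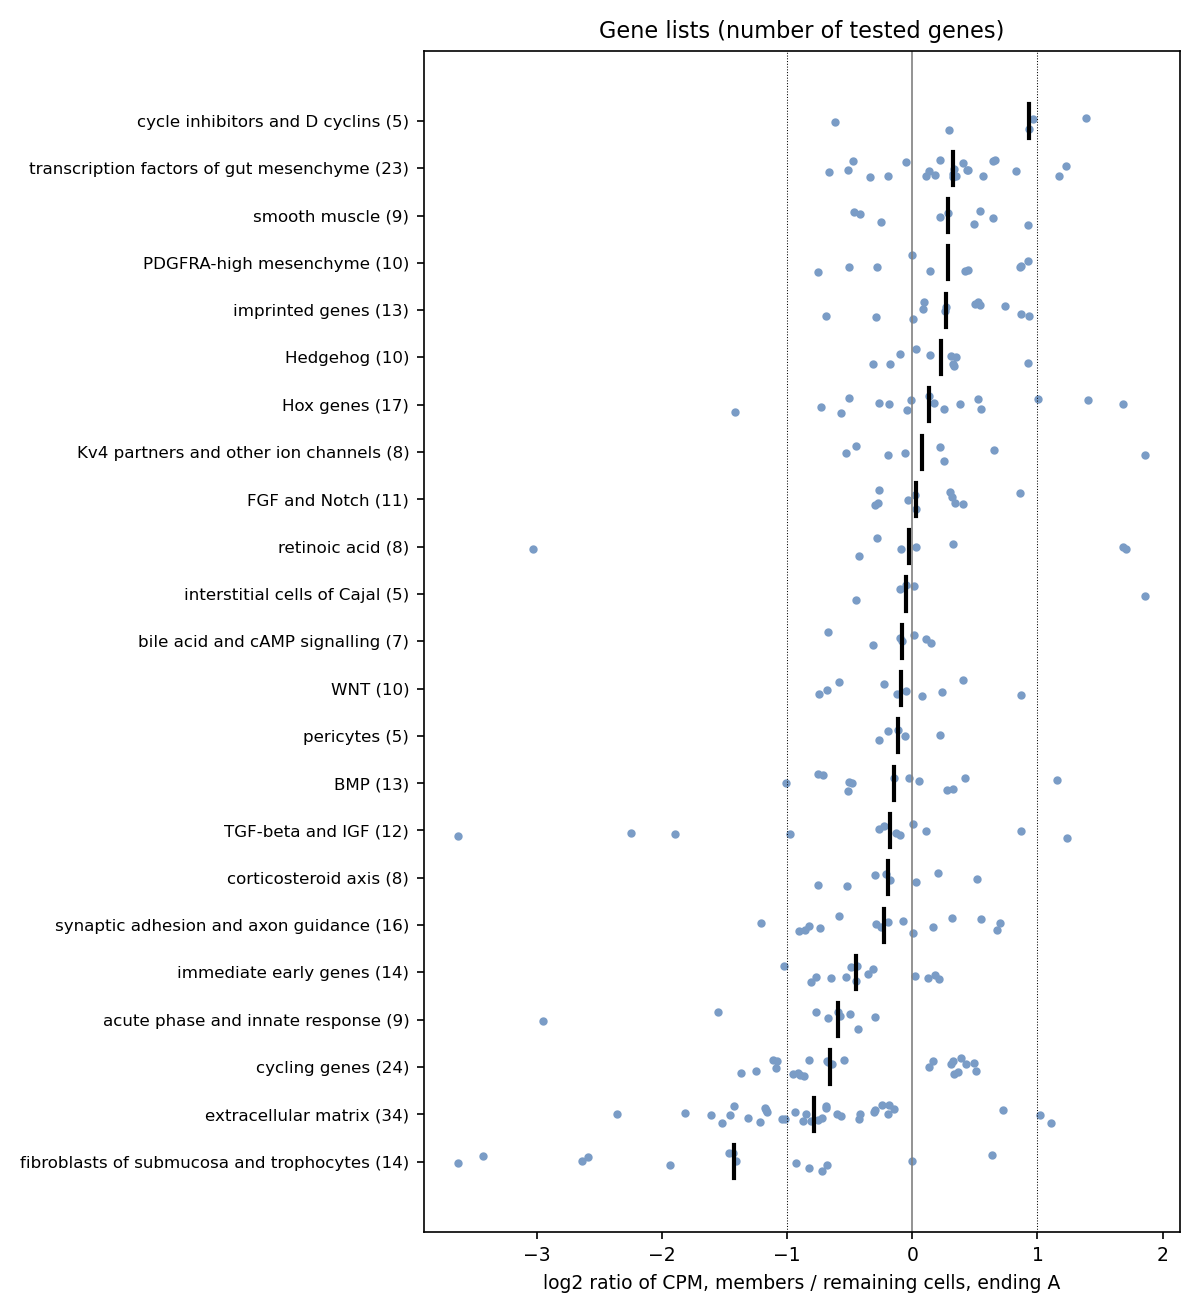
log2 ratio of CPM, members over remaining cells of ending A, for each compared gene (points) of each list with 5 or more such genes; black bars are list medians and dotted lines mark 2-fold. Fibroblasts of submucosa and trophocytes have the lowest median (-1.42), followed by extracellular matrix (-0.78).

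Other genes of the pathways of the 6 genes were few, and at 0.406% over all genes a count of none higher is near the background. Of 9 acute-phase and innate response genes compared, none was called higher, all 9 had ratios below 0, and Ccl2 and Cebpd were called lower. Ccl2, a chemokine for monocytes, stood at 4.00 and 2.35 CPM in members of A1 and A2 against 29.6 and 29.5 CPM. Cebpd, a C/EBP factor of the acute phase, stood at 70.9 and 52.1 CPM against 185.2 and 167.1 CPM, and Cebpb, its relative, at 45.8 against 64.7 CPM. Socs3 and Stat3, of interleukin-6 signalling, had log2 ratios of -0.58 and -0.60. Saa3, a further serum amyloid gene, was near the limit of detection with 4 UMIs in members (1.02 CPM).

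Of 8 genes of the corticosteroid axis, none was called in either direction. Among all genes compared, 0.406% were called higher and 1.36% lower, so counts of none in the short lists of this paragraph are near the background. Nr3c1, the glucocorticoid receptor, was at 53.0 against 76.0 CPM, and its targets varied in direction: the log2 ratio was 0.03 (-0.23 to 0.28) for Fkbp5, 0.20 (-0.04 to 0.44) for Tsc22d3, 0.52 (0.27 to 0.76) for Crispld2 and -0.75 (-1.10 to -0.42) for Klf9. Nr3c2, the mineralocorticoid receptor, had no UMI in members and 15 in the remaining cells (0.268 CPM), too few to compare the groups. None of 7 genes of bile acid and cyclic AMP signalling was called, and Gnas, the stimulatory G protein that Gpbar1 couples to, was at 1790 against 1773 CPM. Among 8 channel genes compared, Ano1, a calcium-activated chloride channel, was called higher at 26.9 against 7.39 CPM. Kcnip1, an auxiliary subunit of Kv4 channels, was under the level for a call, at 8.19 against 2.57 CPM, a log2 ratio of 1.67 (1.07 to 2.23). So was Kcnd1, a relative of Kcnd3, at 3.07 against 1.30 CPM, with 12 UMIs in members and a log2 ratio of 1.24 (0.22 to 2.13). Kcnd2, the other relative, had 1 UMI in members and 116 in the remaining cells. Kcnb2, a pore gene of another voltage-gated family, was called higher at 31.7 against 12.3 CPM. Among 16 adhesion and guidance genes none was called higher, and Gpc4, a glypican of the kind that Lrrtm4 binds, was called lower at 11.8 against 27.2 CPM.

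Genes of positional and retinoid identity were split. Hoxc8 stood at 154.9 and 169.5 CPM in members of A1 and A2 against 58.7 and 63.7 CPM, and Hoxc9 at 31.4 and 25.4 CPM against 7.84 and 9.75 CPM. Hoxa7 was higher by a log2 ratio of 1.00 without meeting the rule in A1, and Hoxa2 was called lower (8.96 against 23.9 CPM). Of the 17 Hox genes compared, 14 were not called, Hoxa7 included. Among all genes compared, 0.406% were called higher and 1.36% lower. Hox genes of higher number act further back along the body, and the gut pieces of these cells were not analysed here. Aldh1a1, which makes retinoic acid, stood at 50.3 and 71.4 CPM against 19.5 and 18.0 CPM, and Crabp1, which binds it in the cytoplasm, at 37.7 and 42.3 CPM against 12.1 and 12.9 CPM. Aldh1a3, another retinoic acid-forming enzyme, went the other way at 4.57 and 5.17 CPM against 42.3 and 41.2 CPM, while Aldh1a2 (290.1 against 232.0 CPM) was not called.

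Among 23 transcription factors of gut mesenchyme, Nr2f1 (72.9 against 31.1 CPM) and Hand1 (22.0 against 9.77 CPM) were called higher and none lower. Foxf1, a Hedgehog-responsive factor, was at 415.0 against 325.0 CPM. None of the 10 genes of the PDGFRA-high mesenchyme list was called: Wnt5a, Hhip and Dll1 had log2 ratios of 0.87, 0.92 and 0.86, and Bmp4 of -0.75. No gene of smooth muscle was called either, with Acta2 at 1309 against 899.0 CPM and Tagln at 236.9 against 316.3 CPM. Of the 10 Hedgehog, 10 WNT and 11 FGF and Notch genes compared none was called, and of 13 BMP genes Fst alone was. Over all genes 0.406% were called higher and 1.36% lower, so counts of none in lists this short are near the background.

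Of 24 cycling genes compared, Cenpf, Hmmr and Ccnb2, which act around mitosis, were called lower and none was called higher. The shares over all genes were 1.36% lower and 0.406% higher. Mcm6, of the helicase that licenses replication, was at 213.1 against 149.9 CPM, and Mcm2, Mcm3, Mcm5 and Mcm7 also had ratios above 0, without reaching 2-fold. In cells thinned to 2000 UMIs, a UMI of Mki67 or Top2a was found in 37.3% (31.4 to 43.4) of members and 46.0% (44.5 to 47.5) of the remaining cells. The share of members was below that of the remaining cells in A1 (35.5% against 46.2%) and in A2 (39.0% against 45.8%), with overlapping intervals in each set. The direction turned when cells were chosen by the Saa pair alone, of which 49.0% had such a UMI. Without thinning the shares were 67.7% and 69.6%. A UMI of an Mcm gene was found after thinning in 72.2% (66.4 to 77.6) of members and 58.2% (56.7 to 59.7) of the remaining cells.

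Levels of Hmga2 and Dcn followed the number of UMIs of the 6 genes outside the members and the number of different genes within them. Those of Cenpf and Pdgfra did not follow both. Hmga2 was at 302.2 CPM in 3361 cells of A1 and A2 with none of these UMIs, at 551.1 CPM in 724 cells with 1 and at 840.5 CPM in 212 cells with 2 or more that missed the limit. In members it was at 640.0 CPM in cells with 1 of the 6 genes, 1093 CPM with 2 and 1326 CPM with 3 or more. Dcn ran the other way, at 902.7, 496.1 and 83.8 CPM outside the members and at 1094, 67.7 and 53.1 CPM within them. Cenpf had no order outside the members, at 235.4, 167.9 and 205.6 CPM, but rose within them, at 50.1, 78.7 and 101.0 CPM. Pdgfra ranged from 138.0 to 172.6 CPM over the 6 groups. Median depth moved with the same groups, from 11905 UMIs in cells with none to 17501 in those with 2 or more outside the members, and its part in the gradient was not tested.

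The 45 members with 1 gene had less Hmga2 and more Dcn than the 212 cells with 2 or more UMIs outside the members. Of these 45 members, 21 carried Hsd11b2 alone, 9 Gpbar1, 9 Kcnd3, 3 Saa1 and 3 Saa2, and none Lrrtm4. The 21 cells with Hsd11b2 alone had Dcn at 2610 CPM, Col1a2 at 3538 CPM and Hmga2 at 350.1 CPM, levels on the side of the remaining cells. The 9 cells with Gpbar1 alone had Dcn at 118.0 CPM, Col1a2 at 501.7 CPM and Hmga2 at 575.4 CPM, and the 9 with Kcnd3 alone had 89.5, 415.0 and 1033 CPM. These groups are small, and they were looked at after the gradient had been seen.

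**Figure D5:**
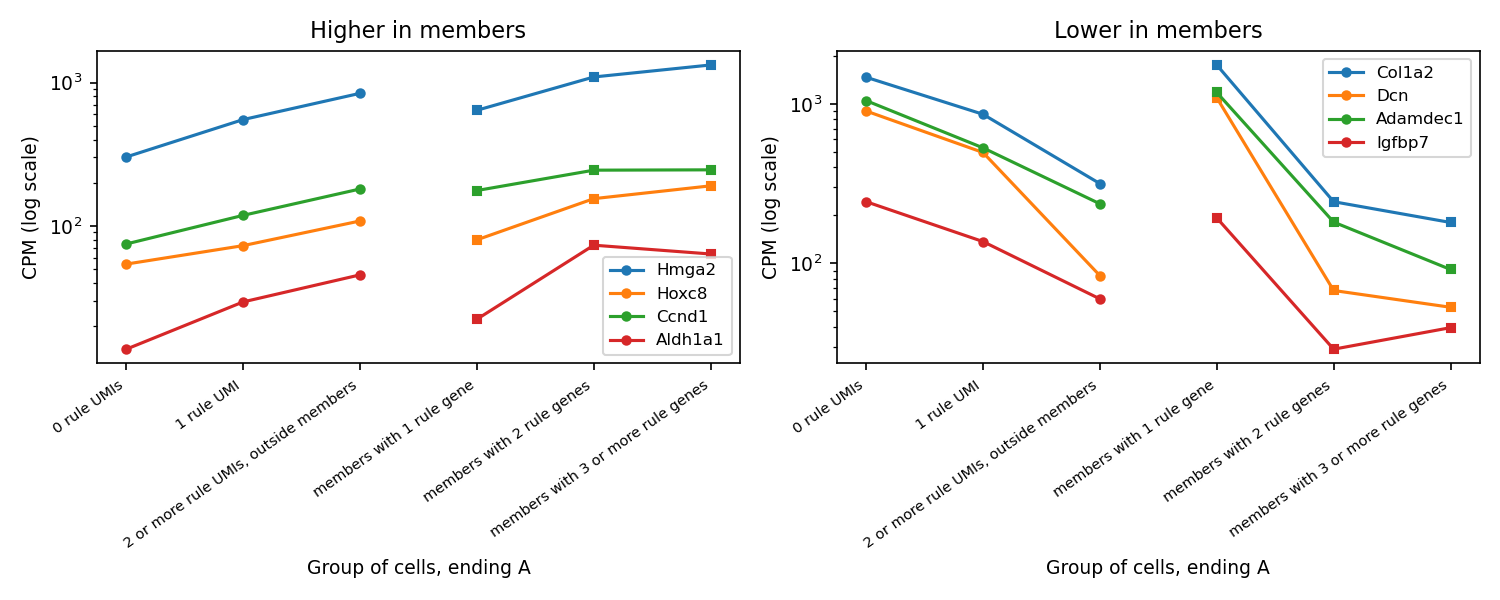
CPM (log scale) of 4 genes higher and 4 genes lower in members, for cells of A1 and A2 outside the members by their UMIs of the 6 genes (circles) and for the 263 members of ending A by their number of different rule genes (squares). Hmga2 goes from 302.2 to 840.5 CPM outside the members, and members with 1 gene depart from the others in Dcn (1094 CPM) and Col1a2 (1755 CPM).

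Members resembled each other in genes that had not chosen them. The 6 genes were put together with results of these cells known, so this likeness is no independent evidence. On 30 principal components made without the 6 genes, 28.9% of the 15 nearest neighbours of a member were members on average, against 4.11% for a remaining cell and 5.71% of all kept cells of A1 and A2. The median over members was 26.7% and the highest value 86.7%. For 39 members (14.8%) no neighbour was a member. Neighbours were sought among the 5742 kept cells of ending A, A3 included, of which 263 were members. Depth was greater in members, and its part in this likeness was not tested.

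The Saa pair and the other 4 genes were also used as separate rules with the same limits, which chose 151 and 222 cells of ending A. The choices shared 40 cells, 26.5% of the first and 18.0% of the second. Hmga2 was at 1002 CPM in the 111 cells chosen by the Saa pair alone and at 947.3 CPM in the 182 cells chosen by the other 4 genes alone, against 377.4 CPM in 4229 cells chosen by neither. Hoxc8 was at 146.7 and 120.2 CPM against 60.6 CPM, and Vcan at 711.7 and 709.4 CPM against 398.0 CPM. Genes at lower levels in members differed in order between the choices. Dcn was at 43.7 CPM in cells chosen by the Saa pair and 314.7 CPM in cells chosen by the other 4, and Col6a5 at 1.11 and 18.4 CPM, against 786.1 and 103.8 CPM in neither. Adamdec1 (402.3 and 276.8 CPM against 910.2 CPM) and Col6a4 (110.1 and 72.4 CPM against 175.6 CPM) had the reverse order. Cenpf was at 172.1 CPM in the Saa cells, 97.8 CPM in the others and 220.7 CPM in neither.

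Members were also compared with cells chosen in the same way from 3 genes of other mesenchymal programmes in A1 and A2. Of the 260 members in these sets, 5 were also Dpt Aspn Mgp cells (1.92%, 0.627 to 4.43, against 6.47% of the remaining cells) and 2 were Col6a5 Lepr Wfdc1 cells (0.769%, 0.0933 to 2.75, against 6.14%). Sptssb Rspo2 Dab1 cells and Klhl6 Tifa Kcnk2 cells each shared 6 cells with the members (2.31%, 0.851 to 4.96), against 6.28% and 5.68% of the remaining cells. Each of the 4 overlaps was below the share in the remaining cells, with intervals that did not overlap. The genes of these programmes and of the members were chosen with earlier results of these data known. Low overlap is therefore a description and no independent evidence. From the other side, the shared cells were 1.77%, 0.752%, 2.17% and 2.40% of those programmes.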

How the data were processed

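Single-cell RNA was captured with a MULTI-seq 10x workflow from 6 samples in 4 groups, with 35000 cells loaded a well and 20000 aimed for, per the labels' protocols. Cell Ranger 2.1.1, Seurat and mm10 are named in the submitters' processing notes. The authors deposited 1 matrix of UMI counts, 24568 gene symbols by 13127 barcodes with 100735249 UMIs. Barcode suffixes were not mapped to samples, 22 barcode sequences occurred in more than 1 set, and no column of another sample was present.

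The filter removed 439 cells (108 with few genes, 367 with high mitochondrial shares, counted separately). No doublet caller was run, and leaving out the deepest 5% of cells of each set was an alternative. CPM are summed UMIs per 1000000. Log2 ratios carry exact conditional binomial 95% intervals and shares carry Clopper-Pearson intervals (scipy 1.17.1), which cover counting error only. The ratio step was tested on simulated data. Neighbours used 2000 variable genes and scikit-learn 1.9.0.

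A gene called 2-fold had to be so in both endings in the plan. With 7 members in ending B, A1 and A2 took the place of the endings, for calls and for named genes. Named genes were the 6 rule genes, up to 4 highest and 3 lowest in each list, and the 12 highest and 8 lowest beyond the lists at 50 CPM or more. Other genes named were chosen after their values were seen. The members and lists were chosen with earlier results of these data known. No count model was fitted, because the pooled matrix has no replicates.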

Additional observations from a re-analysis of the deposited data

How the results depend on the processing

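No paired analysis was possible because cells could not be tied to samples or lane numbers, and no replicate could be left out. Log2 ratios of named genes often left the interval of the main result: 85 of 147 by the Saa pair alone and 44 for the top 2%. With thinning before the choice 96 did, besides 2 that reversed, and without the cell filter 0 did. Direction was steadier. For the 48 named genes at 2-fold or more in ending A, 560 of 562 log2 ratios under 12 alternatives kept their direction. The exceptions were Aldh1a1 (-0.21) and Nr2f1 (-0.83) with the rule applied after thinning to 2000 UMIs, which left 27 members and no value for 23 named genes. That thinning gave 362 genes higher, 926 lower and 17 matrix genes lower, from fewer UMIs. Without a CPM minimum 332 genes were higher and 3076 lower, and at 50 CPM 12 and 52. Pooling ending A gave 46 higher, and requiring 2-fold in both endings gave 5 higher and 52 lower, resting on 26011 UMIs of 7 cells. The pooled count was added after seeing the data, and the count over both endings is the one first planned. The top 2% of cells gave 147 lower genes with 14 matrix genes, 3 or more UMIs 143 with 15, and at least 2 different rule genes 142 with 16. Matrix genes lower numbered 15 by the Saa pair alone and 5 when standardised over set and UMI decile, against 9. That standardisation gave 25 higher and 66 lower among all genes compared, against 28 and 94. Members in ending B numbered 0 with 3 or more UMIs, 2 with at least 2 rule genes, 3 without the Saa pair, 3 by the Saa pair alone and 3 in sets 1 and 2 only. The percentage of members in A3 was 0 with 3 or more UMIs and 0 in A1 and A2 only, against 1.14. The neighbour share was 17.6% for the top 2%, 36.6% for the top 10%, 30.6% with 3 or more UMIs, 24.3% without the Saa pair, 17.0% by the Saa pair alone and 27.45% over 30 neighbours. The cycling share was 49.0% by the Saa pair alone, given without an interval, above the 46.0% of the remaining cells of the 6-gene rule. The causes were not tested. The left-out gene step kept all genes of the rule at 2-fold or more under each alternative reported, and is not reported for the Saa pair alone. Depth limits the 6 genes: most members carry 2 to 4 UMIs of them, so cells with these transcripts lie outside as well.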
